A study of Mus musculus with 24 samples.

Results

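The 8 genes described here are the neurotrophins Bdnf and Ntf3, the neurotrophin receptors Ntrk2, Ntrk3, Ngfr and Sort1, and the granin-type secretory proteins Vgf and Scg2. They were found by matching the capitalised gene symbol of each row to the 8 names (BDNF, NTF3, NTRK2, NTRK3, NGFR, SORT1, VGF and SCG2), and each name matched 1 row of the 51733 genes in the table. All 8 had enough counts to be tested in every comparison. The mice were males of 2 to 3 months on a C57BL/6 background, and all carried RiboTag, a conditional HA tag on the ribosomal protein Rpl22, together with a Cre recombinase driven by the CaMKIIα promoter, which is active in excitatory forebrain neurons. Conditional knock-in mice (cKI) had both eIF2α alleles changed so that the regulatory serine is an alanine (eIF2α A/A), with a floxed wild-type eIF2α transgene that Cre deletes. Control mice are labelled as standard CaMKIIα-Cre+, so both genotypes were designed to express Cre and tagged ribosomes in the same neurons, and their eIF2α alleles are not described further. Cells without Cre are not designed to make tagged ribosomes and are represented in the input. Mice of each genotype were either naive or taken 1 h after training to fear a tone that ended with a foot shock, and the labels do not say whether the weaker or the stronger of their training protocols was used. From the hippocampi of each of 12 mice a whole-lysate input and an anti-HA immunoprecipitate (IP) of ribosome-bound RNA were sequenced, which gave 24 libraries in 8 groups of 3. The genotype comparison addresses what loss of eIF2α phosphorylation in these neurons does to their messages, and the training comparison what conditioning does to them.

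As background, neurotrophins are secreted as precursors that are cleaved to mature growth factors. Mature BDNF acts mainly through TrkB, the tyrosine kinase encoded by Ntrk2, and NT-3, the product of Ntf3, acts mainly through TrkC, encoded by Ntrk3. The precursors bind p75NTR, encoded by Ngfr, together with sortilin, encoded by Sort1, which also sorts proBDNF to secretory vesicles. In hippocampal neurons BDNF, VGF and secretogranin II (Scg2) travel in dense-core vesicles and are released with activity, and Bdnf, Vgf and Scg2 are known as genes that neuronal activity can induce.

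The upstream sequences of Scg2 and of 1 of the Bdnf start sites are shown. Among the members' promoters that could be searched, these hold a cAMP response element or a close variant of it. Activity is known to act on both genes through this motif. RefSeq (GRCm38.p6) start sites were on hand for 5 of the 8 members (Bdnf, Ntf3, Ntrk2, Ngfr and Scg2). Vgf, Sort1 and Ntrk3 had no entry and were not searched, so whether their promoters hold the motif is not known here. The 250 bases before each start were searched on both strands for TGACGTCA and for CACGTCA, neither of which contains the other. TGACGTCA was in 1.55% and CACGTCA in 1.65% of 32851 promoters searched in the same way. Of the 7 Bdnf starts 1 held a match, the Scg2 start held 1, and the 4 starts of the other members held none. The capitals mark the match, whose first base lies 68 bases before the Scg2 start and 37 bases before the Bdnf start.
Scg2, chr1:79440027-79440276, minus strand: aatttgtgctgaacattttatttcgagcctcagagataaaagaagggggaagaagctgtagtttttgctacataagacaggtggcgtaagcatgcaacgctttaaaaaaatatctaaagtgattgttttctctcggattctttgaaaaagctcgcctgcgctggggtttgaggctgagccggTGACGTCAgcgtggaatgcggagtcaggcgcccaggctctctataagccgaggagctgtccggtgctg
Bdnf, chr2:109692186-109692435, plus strand: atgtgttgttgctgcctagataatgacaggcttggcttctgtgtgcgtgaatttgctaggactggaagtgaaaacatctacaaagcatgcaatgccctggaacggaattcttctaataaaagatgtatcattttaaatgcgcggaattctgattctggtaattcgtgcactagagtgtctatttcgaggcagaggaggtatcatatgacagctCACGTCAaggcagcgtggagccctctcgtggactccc
A match is a stretch of letters and not a measured binding site. The counts are per gene, so they do not separate transcripts from the 7 Bdnf starts, nor the full-length TrkB kinase from its truncated form, and values for those forms are not given.

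Inputs held 28.8 to 37.7 M counts and IPs 30.6 to 43.5 M, so that 1 count is worth at most 0.035 CPM, the count divided by the library total on a fixed scale. Eif2s1, which encodes eIF2α, was at 40 to 45.5 CPM in cKI inputs and 33.1 to 36.6 CPM in control inputs, but a count per gene does not show a single changed codon and checks no genotype label. All 10 excitatory neuron markers were higher in the IP than in the input, and all 15 astrocyte, 13 oligodendrocyte and 12 microglia markers were lower. Dentate granule cell markers, summed over 13 genes, ran from 601 to 2150 CPM in IPs against 1030 to 1240 CPM in inputs, so the IPs differed among themselves in this cell type. Flow-cell lane was unevenly spread over the groups. All 6 cKI inputs ran on lane 4 with 2 of the naive control inputs, and the other 4 control inputs on lane 5. The 3 naive cKI IPs and 1 cKI IP at 1 h ran on lane 5, and the other 8 IPs on lane 6. Levels are given in CPM of the library total, which compares libraries for 1 gene but not 1 gene with another, because gene length was not used. A log2 fold change is an edgeR estimate after TMM scaling, its error is the standard error (SE), and a gene is said to rise or fall where the Benjamini-Hochberg adjusted p of edgeR's quasi-likelihood test over all genes tested was under 0.05.

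**Figure D1:**
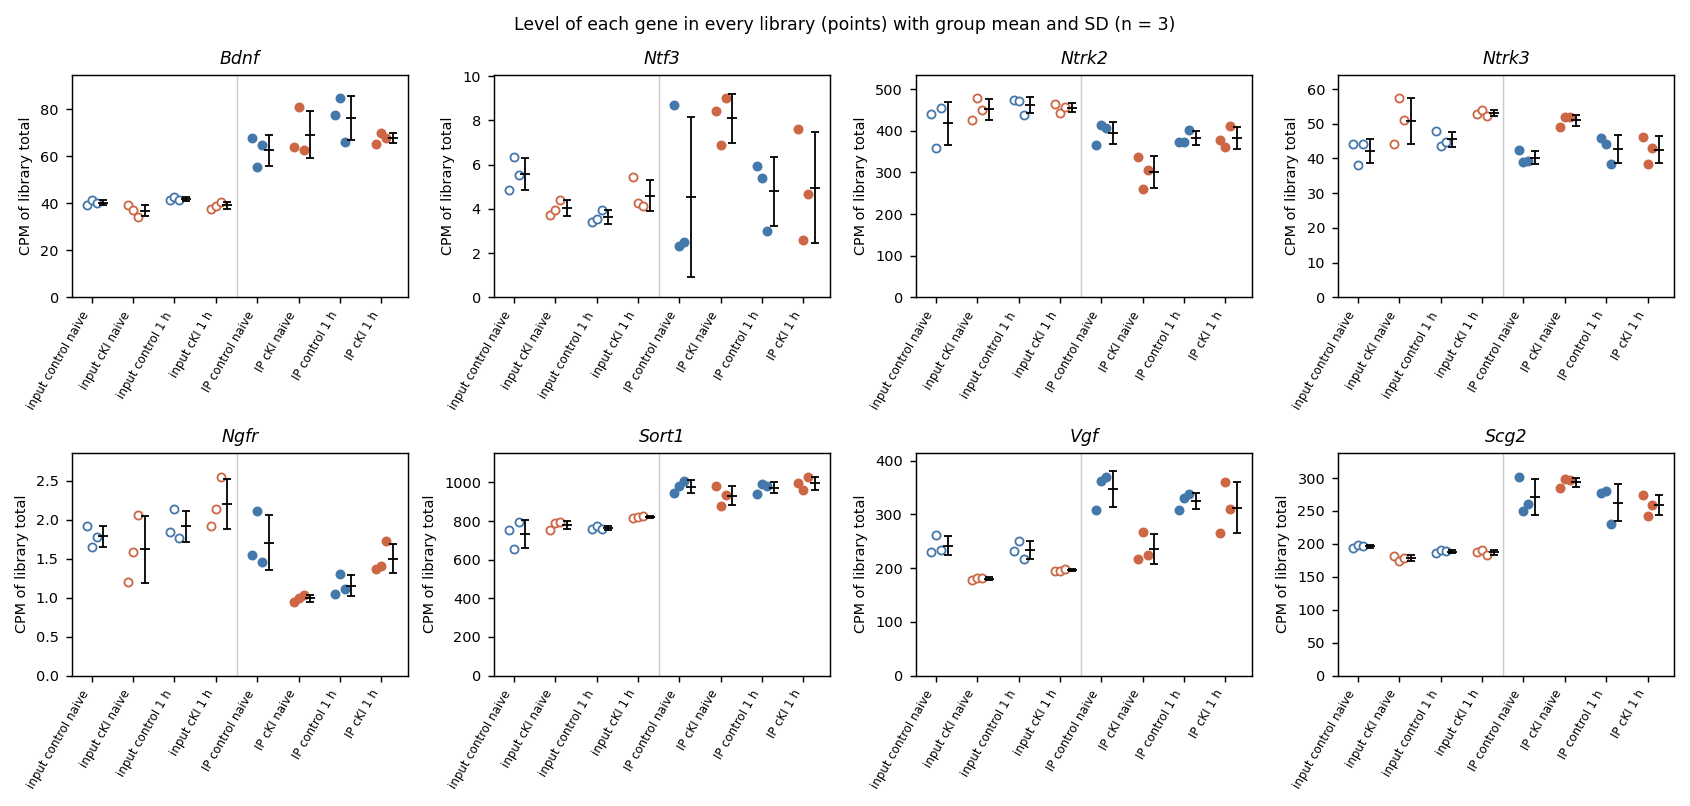
Level of each of the 8 genes in CPM of the library total (vertical axis, linear from 0) in the 24 libraries, by fraction, genotype (blue, control; orange, cKI) and training (horizontal axis; open points, inputs; filled points, IPs). Bars beside the points are the group mean and SD of 3 mice. Bdnf, Sort1 and Scg2 lie higher in every IP than in any input, and Vgf in naive mice lies lower in all 3 cKI libraries than in the 3 controls in both fractions.

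In the ribosome fraction of the Cre-positive cells Bdnf, Ntf3, Sort1, Vgf and Scg2 rose over the input. For Ntf3 the call was lost under another scaling and with lane as a covariate. The receptor genes Ntrk2 and Ntrk3 took either sign with the scaling, and Ngfr had a negative value. In the comparison of 12 IPs with 12 inputs 6 of 8 members passed the test, against 85.9% of all genes tested, so passing is ordinary here and the size is what describes a member. In this bulk tissue fewer cells of a type and less RNA per cell cannot be told apart. The scaling matters for this comparison. With TMM the median log2 fold change of all genes was -0.01, and with library totals alone it was -0.31, with 49.8% and 30% of called genes higher in the IP.

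Bdnf had the largest difference of the 8. Its level was 34.3 to 42.8 CPM (median 39.8) in the 12 inputs and 55.2 to 84.6 CPM (median 66.9) in the 12 IPs. The fractions did not overlap, and the IP was above the input in 12 of 12 mice, by 1.34- to 2.19-fold. The log2 fold change was 1.11 (SE 0.05, adjusted p = 3.3e-16) with TMM and 0.80 with library totals. Ntf3 went from 4.46 ± 0.901 CPM (SD, n = 12) in inputs to 5.59 ± 2.55 CPM in IPs, a log2 fold change of 0.61 (SE 0.20, adjusted p = 0.0092) with TMM. With library totals it was 0.30 (adjusted p = 0.17), and the IP was above the input in 8 of 12 mice. With lane as a covariate the Ntf3 value was 1.28 and did not pass (adjusted p = 0.063).

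Among the receptors, the tyrosine kinase genes had small values whose sign depended on the scaling. Ntrk2 was at 447 ± 32.3 CPM in inputs and 365 ± 45.5 CPM in IPs (SD, n = 12), and its log2 fold change was 0.01 (95% interval -0.08 to 0.10) with TMM and -0.30 (adjusted p = 9.8e-07) with library totals. The IP level of Ntrk2 in CPM was above the input in 1 of 12 mice. Ntrk3 was at 47.9 ± 5.63 CPM and 44.1 ± 4.98 CPM, with 0.19 (SE 0.04, adjusted p = 0.00018) under TMM and -0.12 (adjusted p = 0.015) under library totals. With lane as a covariate Ntrk3 was 0.21 and did not pass (adjusted p = 0.14). Ngfr, which is best known from cholinergic neurons of the basal forebrain, was near the lower end of what these libraries count, at 1.20 to 2.55 CPM in inputs and 0.945 to 2.11 CPM in IPs. Its log2 fold change was -0.20 (SE 0.10, adjusted p = 0.054), and -0.51 (adjusted p = 5.1e-05) with library totals. It passed with TMM when any 1 of 6 libraries was left out (-0.26 to -0.22), namely cKI input replicate 1 of either training state, naive cKI IP replicate 2, cKI IP replicate 3 at 1 h, or control IP replicate 2 of either training state. The 4 markers of septal cholinergic cells summed to 0.716 to 1.84 CPM in inputs and 0.111 to 0.713 CPM in IPs, and up to 3 of the 4 were at 0 in an IP.

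Sort1 was between 653 and 825 CPM in inputs and between 880 and 1030 CPM in IPs. Its log2 fold change was 0.63 (SE 0.03, adjusted p = 5.6e-15) with TMM and 0.32 with library totals, and the IP was higher in all 12 mice. The granin genes moved by similar amounts. Vgf was at 177 to 262 CPM in inputs and 216 to 370 CPM in IPs, a log2 fold change of 0.82 (SE 0.05, adjusted p = 2.3e-13). Scg2 was at 174 to 198 CPM and 230 to 302 CPM, a change of 0.84 (SE 0.03, adjusted p = 1.2e-16). Under library totals these were 0.51 and 0.53. As the mean of both training states, the genotype difference in the IP to input ratio was called for none of the 8 genes. Both edgeR and DESeq2 called 0 of 8, against 0.0229% of all genes with edgeR. Ntrk2 was the 1 member with an unadjusted edgeR p under 0.05, at -0.23 (95% interval -0.41 to -0.05). In naive mice alone, which were not tested for this, Ntrk2 ratios were 0.546 to 0.792 in cKI and 0.831 to 1.16 in controls. Ngfr ratios there were 0.501 to 0.789 and 0.808 to 1.28. Scg2 went the other way, at 1.57 to 1.71 and 1.26 to 1.56. For Bdnf, Ntf3, Ntrk3, Sort1 and Vgf the naive ratios of the genotypes overlapped. The share of all genes whose ratios separate in this way was not taken. The naive cKI IPs ran on lane 5 and the naive control IPs on lane 6, so lane and genotype cannot be told apart here. By training the ratio was called for none either (edgeR 0 of 8, none with an unadjusted p under 0.05, DESeq2 0 of 8, 0.00573% of all genes).

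**Figure D2:**
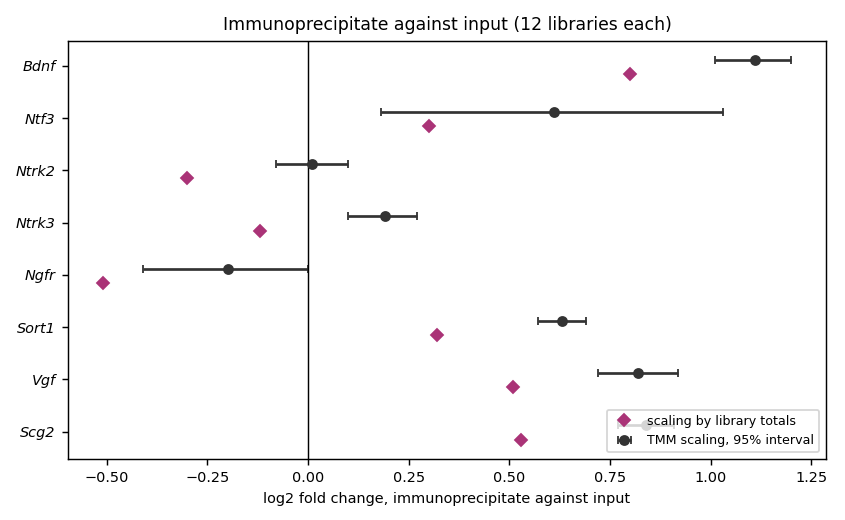
Log2 fold change of IP against input (horizontal axis, 12 libraries of each) for the 8 genes. Circles with bars are estimates with TMM scaling and their 95% interval, and diamonds are estimates from library totals. All diamonds lie about 0.31 to the left of the circles, and those of Ntrk2 and Ntrk3 fall on the other side of 0.

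The lists of related genes showed both directions between fractions. In the sortilin family Sorl1 (0.76) and Sorcs3 (0.89) were higher in the IP and Sorcs1 (-0.66) and Sorcs2 (-0.44) lower, and with lane as a covariate the last pair did not pass (adjusted p = 0.10 and 0.089). Of 5 other granins, the chromogranin genes Chgb (1.33) and Chga (0.63) and Scg5 (0.88), which encodes the chaperone 7B2, rose, Scg3 fell (-1.18), and Pcsk1n did not pass (-0.05). Of 11 genes for precursor processing 10 were tested, 1 rose and 4 fell. The riser was Pcsk2, a prohormone convertase of neuroendocrine granules (1.02), and the largest fall was in Pcsk6 (-3.34, from 28 to 2.24 CPM). Pcsk1, the other granule convertase (-0.48), and Plat, which encodes tissue plasminogen activator (-0.37), fell as well, and Plat did not pass with lane as a covariate (adjusted p = 0.13). For dense-core vesicle release 8 of 10 genes rose with TMM, beside 7473 higher and 7523 lower among all genes, among them Cadps2 (0.85), Rab3a (0.76), Ptprn (0.57) and Syt4 (0.55), and Hap1 fell. The medians were 0.63 for other granins, -0.05 for processing, 0.39 for vesicle release, 0.06 for 39 genes of Trk signalling and 0.10 for 15 of p75 signalling, beside -0.01 for all genes. With library totals 5 vesicle release genes were higher and 2 lower, with Cadps2, Rab3a, Ptprn, Syt4 and Hap1 keeping their direction and Rab27b going from 0.16 to -0.15. Of the processing genes 1 was then higher and 9 lower, and of other granins 3 and 2. The medians under library totals were 0.32 for other granins, -0.36 for processing, 0.08 for vesicle release, -0.24 for Trk signalling and -0.20 for p75 signalling, beside -0.31 for all genes.

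In IPs of naive mice 4 of the 8 members differed between cKI and control, against 3.7% of all genes, with Vgf, Ntrk2 and Ngfr lower in cKI and Ntrk3 higher. Vgf was at 216, 268 and 224 CPM in the 3 naive cKI IPs and at 308, 362 and 370 CPM in the 3 controls. All cKI libraries were below all controls, and the log2 fold change was -0.59 (SE 0.12, adjusted p = 0.021). Ntrk2, the TrkB gene, was at 337, 261 and 305 CPM in cKI and at 365, 414 and 406 CPM in controls, again without overlap, with a change of -0.42 (SE 0.09, adjusted p = 0.032). Ngfr was at 0.945, 0.993 and 1.03 CPM in cKI and at 1.55, 2.11 and 1.45 CPM in controls, a change of -0.82 (SE 0.20, adjusted p = 0.041). Ntrk3, the TrkC gene, was at 49.0, 51.8 and 52.0 CPM in cKI and at 42.3, 38.9 and 39.3 CPM in controls, a change of 0.31 (SE 0.08, adjusted p = 0.043). The Trk receptor genes Ntrk2 and Ntrk3 thus went in opposite directions in the same 6 libraries.

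The other 4 members did not pass in naive IPs. Bdnf was at 64.1, 80.9 and 62.7 CPM in cKI and at 67.8, 55.2 and 64.7 CPM in controls (log2 fold change 0.11, 95% interval -0.12 to 0.34). For Scg2 the estimate was 0.09 (-0.09 to 0.26) and for Sort1 it was -0.11 (-0.24 to 0.03). Ntf3 was at 8.41, 6.87 and 9.0 CPM in cKI and at 8.71, 2.34 and 2.52 CPM in controls, with 0.81 (-0.36 to 1.98). Control replicate 1 lay in the range of the cKI libraries, and without it the Ntf3 estimate was 1.70 (adjusted p = 0.036). Granule cell markers summed to 1570 CPM in that control, and to 649 and 651 CPM in the controls left. Under other settings of the fit, with that library kept, the Ntf3 estimate ran from -0.24 to 1.01 and did not pass.

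These 4 calls changed with the settings of the fit and with single libraries left out. All 3 naive cKI IPs were on lane 5 and all 3 naive control IPs on lane 6. No within-lane value therefore exists for this comparison, and lane and genotype cannot be told apart in it. With lane as a covariate, which takes the lane effect from the cKI IPs at 1 h, none of the 4 passed. Over all genes that fit called 1, against 564 without the covariate, so the loss was not particular to these members. In it Vgf was -0.23 (adjusted p = 0.75), Ntrk2 -0.37 (0.73), Ngfr -0.61 (0.73) and Ntrk3 0.15 (0.77). Granule cell markers were also uneven, at a sum of 1630 to 2150 CPM in naive cKI IPs and 649 to 1570 CPM in naive control IPs, while markers of CA1 pyramidal cells summed to 1290 to 1670 CPM and 1630 to 2170 CPM. None of the 13 granule or 10 CA1 markers was at 0 in an IP. With the granule marker score as a covariate Vgf was -0.38 (adjusted p = 0.05, inside the threshold before rounding) and the other calls were lost, at -0.37 for Ntrk2 (0.14), -0.74 for Ngfr (0.17) and 0.19 for Ntrk3 (0.19). When the libraries were left out in turn, the count of members called ranged from 0 to 5 while the count over all genes ranged from 22 to 933 (564 with all libraries), lowest without control replicate 2. The members' count was 0 without control replicate 2, control replicate 3 or cKI replicate 3. It was 1 without cKI replicate 1 or cKI replicate 2, and 2 without control replicate 2 of the 1 h group, whose spread enters the same fit. Vgf kept a value between -0.68 and -0.53 in all of these and was not called in 4 of the 12.

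Of the related lists in naive IPs, 2 of the 4 sortilin-family genes fell in cKI, with Sorcs3 at -0.83 (SE 0.11, adjusted p = 0.0029) and Sorcs1 at -0.92 (SE 0.22, adjusted p = 0.04), and none rose. The median of the 4 was -0.61, beside 0 for all genes. Of the 23 immediate-early genes, which neuronal activity induces, 3 fell and none rose: Dusp1 (-0.85, SE 0.15, adjusted p = 0.017), Nr4a2 (-0.70, SE 0.15, adjusted p = 0.032) and Fosb (-0.59, SE 0.15, adjusted p = 0.047), with a list median of -0.37. Of 10 processing genes Pcsk7 rose (0.32), of 10 vesicle release genes Ptprn2 fell (-0.40), of 39 Trk signalling genes Map2k1 rose (0.32), and none of the p75 signalling genes or other granins passed. With lane as a covariate these 8 genes had an adjusted p of 0.73 to 0.78. With the granule marker score as a covariate Sorcs3 passed and the other 7 did not (adjusted p = 0.062 to 0.21). When libraries were left out in turn Sorcs3 passed each time, and the others lost their call in 3 to 9 of 12 fits. Sorcs3 passed also as the mean of both training states (-0.49, SE 0.07, adjusted p = 0.008), and with the lane covariate it did not (-0.36, adjusted p = 0.6). The immediate-early genes that fell as that mean were Fosb (-0.58), Dusp1 (-0.50), Npas4 (-1.07) and Egr3 (-0.34), 4 of 23 with none higher, beside 1.69% of all genes called. With the lane covariate their adjusted p was 0.6 to 0.69. With 1 library left out Egr3 and Npas4 each lost their call in 9 of 12 fits, Dusp1 in 8 and Fosb in 0. Npas4 also did not pass with the granule marker score (adjusted p = 0.071).

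At 1 h after conditioning 0 of 8 members differed between the genotypes in IPs by edgeR or DESeq2, none had an unadjusted p under 0.05, and 0.0591% of all genes were called. Vgf was then at 266, 361 and 310 CPM in cKI and at 308, 330 and 337 CPM in controls, which overlap, with a log2 fold change of -0.06 (95% interval -0.31 to 0.19). Ntrk2 was at 378, 360 and 411 CPM in cKI and at 373, 372 and 401 CPM in controls (0.00, -0.20 to 0.20). Ngfr was at 1.37, 1.41 and 1.72 CPM in cKI and at 1.05, 1.30 and 1.11 CPM in controls (0.37, -0.06 to 0.80), without overlap and with the sign opposite to that in naive mice. On lane 6 alone, which held 2 of the cKI IPs and all controls of this time, the Vgf estimate was 0.05 (adjusted p = 0.88).

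The test of the change in genotype effect from naive to 1 h called 0 of 8 members in IPs by edgeR and 0 by DESeq2, with 4 unadjusted p under 0.05, against 0.0131% of all genes. The values were 1.19 for Ngfr (SE 0.28, unadjusted p = 0.00092, adjusted p = 0.27), 0.53 for Vgf (SE 0.16, adjusted p = 0.34), 0.42 for Ntrk2 (SE 0.13, adjusted p = 0.34) and -0.32 for Ntrk3 (SE 0.11, adjusted p = 0.35). The genotype effect at 1 h was thus not shown to differ from that in naive mice for any member. As the mean of both training states, 0 of 8 members passed in IPs with edgeR (1.69% of all genes), 3 had an unadjusted p under 0.05, and DESeq2 called 1, Vgf. The edgeR value for Vgf was -0.33 (SE 0.08, adjusted p = 0.065), with 216 to 361 CPM in 6 cKI IPs and 308 to 370 CPM in 6 controls. It passed without cKI replicate 2 at 1 h (-0.39, adjusted p = 0.037) and without naive control replicate 1 (-0.37, adjusted p = 0.038). Under other settings of the fit the Vgf value ran from -0.33 to -0.09, with an adjusted p of 0.0066 to 0.81.

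**Figure D3:**
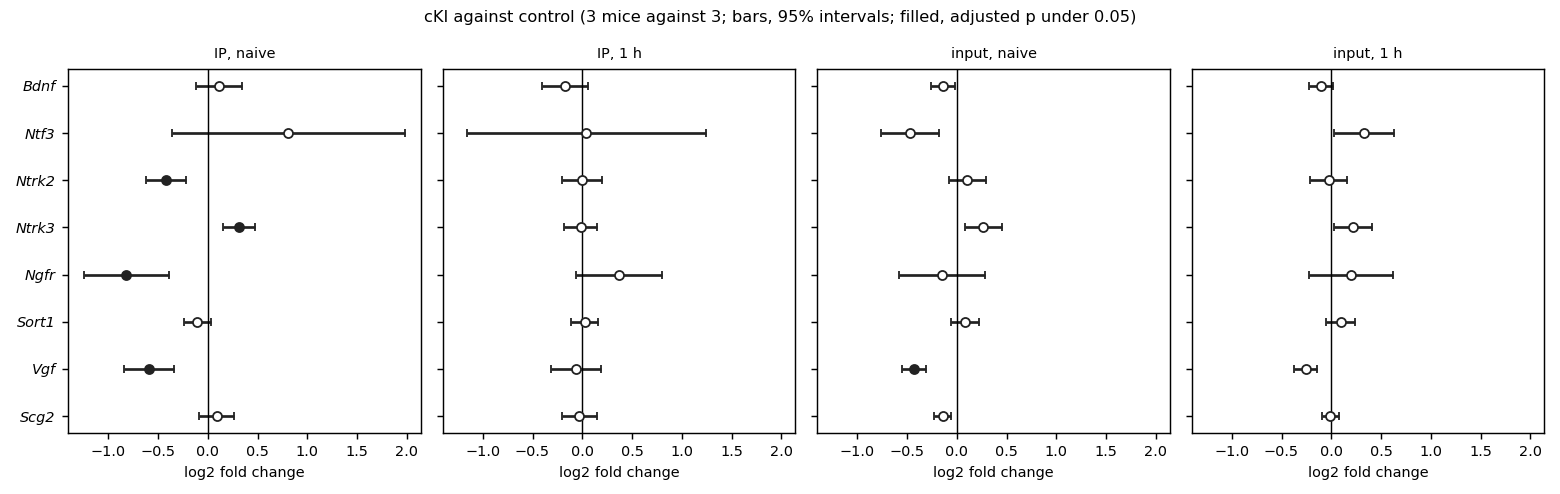
Log2 fold change of cKI against control (horizontal axis) for the 8 genes in naive and conditioned mice, in IPs and inputs, with 95% intervals from 3 mice against 3. Filled points passed an adjusted p of 0.05: Vgf, Ntrk2, Ngfr and Ntrk3 in naive IPs and Vgf in naive inputs. With sequencing lane as a covariate the 4 calls in naive IPs are lost.

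In whole-lysate inputs Vgf was the member that differed by genotype. It was at 177, 182 and 181 CPM in naive cKI inputs and at 229, 262 and 234 CPM in naive controls, a log2 fold change of -0.43 (SE 0.05, adjusted p = 0.004), and it was the 1 of 8 members called, against 0.859% of all genes. At 1 h it was at 195, 195 and 199 CPM in cKI and at 232, 250 and 217 CPM in controls, again without overlap, with -0.25 (SE 0.05, adjusted p = 0.085). There 0 of 8 members passed with edgeR (0.267% of all genes), 3 had an unadjusted p under 0.05, and DESeq2 called Vgf. Without naive control input replicate 2, which enters through the shared spread, edgeR called it as well (-0.26, adjusted p = 0.01). Over both training states the 6 cKI inputs (177 to 199 CPM) were all below the 6 controls (217 to 262 CPM), with a log2 fold change of -0.34 (SE 0.04, 95% interval -0.42 to -0.26, adjusted p = 0.00072), and 1 of 8 members was called, against 3.15% of all genes. The genotype by training interaction of Vgf in inputs was 0.18 (SE 0.08, adjusted p = 0.99), and 0 of 8 members were called there by edgeR or DESeq2, with 3 unadjusted p under 0.05 (0.0348% of all genes).

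The lower Vgf level in cKI inputs was also present within a lane. On lane 4, with 3 naive cKI and 2 naive control inputs, the log2 fold change was -0.44 (adjusted p = 0.013), and with lane as a covariate in the naive comparison it was -0.44 (adjusted p = 0.011). For the mean of both states the covariate gave -0.36 (adjusted p = 0.067), the same size without passing. At 1 h all cKI inputs were on lane 4 and all controls on lane 5, so lane and genotype cannot be told apart at that time. Oligodendrocyte markers also moved with genotype in these inputs: 10 of 13 fell in naive cKI, and their sum was 4550 to 5260 CPM in cKI and 6240 to 6850 CPM in controls. None of 21 inhibitory and 10 excitatory neuron markers passed, and their sums overlapped, at 1950 to 2110 and 2040 to 2180 CPM for the inhibitory and 6740 to 7390 and 6300 to 7030 CPM for the excitatory list. No marker of these 3 lists was at 0, and the part of the oligodendrocyte difference in that of Vgf was not tested.

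None of the other 7 members passed in inputs with edgeR. Ntrk3 was at 44.1 to 57.3 CPM in 6 cKI inputs and 38.0 to 48.0 CPM in 6 controls, a log2 fold change of 0.24 (SE 0.06, adjusted p = 0.053). It passed without naive cKI replicate 1 (0.29, adjusted p = 0.023) or naive control replicate 3 (0.27, adjusted p = 0.043). Bdnf was at 38.0 ± 2.23 CPM in cKI and 41.1 ± 1.20 CPM in controls (SD, n = 6), with -0.12 (SE 0.04, adjusted p = 0.11). Scg2 was at 183 ± 5.92 and 192 ± 4.87 CPM, with -0.08 (SE 0.03, adjusted p = 0.15). For Ntrk2, Ngfr, Sort1 and Ntf3 the 95% intervals of this mean difference were -0.09 to 0.17, -0.28 to 0.33, -0.01 to 0.19 and -0.28 to 0.14. Of the related genes in inputs, 1 of 5 other granins fell in cKI as the mean of both states (Chga, -0.19, SE 0.04, adjusted p = 0.021), and 2 of 10 processing genes fell, Cpe, which encodes the carboxypeptidase that trims granule peptides (-0.14, adjusted p = 0.023), and Plat (-0.21, adjusted p = 0.026). Of 15 p75 signalling genes Irak1 rose (0.19, adjusted p = 0.022) and Maged1 fell (-0.12, adjusted p = 0.04), and of 23 immediate-early genes Ier2 (-0.43, adjusted p = 0.027) and Nptx2 (-0.28, adjusted p = 0.047) fell. With the lane covariate these 7 had an adjusted p of 0.096 to 0.39, and each lost its call in 4 to 10 of 12 fits with 1 library left out.

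Conditioning changed none of the 8 genes past the threshold of edgeR's test in either fraction or genotype, though with the replicate number as a block Vgf passed in cKI IPs (0.44, adjusted p = 0.036). In control IPs, where 0.328% of all genes were called, 2 members had an unadjusted p under 0.05 and DESeq2 called none. Bdnf there was at 67.8, 55.2 and 64.7 CPM in naive mice and at 77.6, 84.6 and 66.1 CPM at 1 h, a log2 fold change of 0.29 (SE 0.11, unadjusted p = 0.018, adjusted p = 0.33). The groups overlapped by 1 library on each side, and the 95% interval was 0.06 to 0.52. In cKI IPs Bdnf was at 62.7 to 80.9 CPM in naive mice and 65.4 to 69.7 CPM at 1 h (0.00, -0.23 to 0.24). Scg2, whose upstream element is printed above, had -0.03 (-0.21 to 0.14) in control IPs and -0.15 (-0.32 to 0.03) in cKI IPs.

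In cKI IPs, where 0.0459% of all genes were called, 4 members had an unadjusted p under 0.05, and DESeq2 called 2 of them, Ntrk2 and Vgf. These are the members that stood apart in naive cKI IPs, and both comparisons use the same 3 naive cKI libraries. The edgeR values were 0.44 for Vgf (SE 0.12, adjusted p = 0.24), 0.38 for Ntrk2 (SE 0.09, adjusted p = 0.23), 0.63 for Ngfr (SE 0.20, adjusted p = 0.28) and -0.22 for Ntrk3 (SE 0.08, adjusted p = 0.30). Under other settings of the fit Vgf ran from 0.19 to 0.44 and Ntrk2 from 0.34 to 0.38, each with an adjusted p of up to 0.93. All naive cKI IPs and replicate 1 at 1 h ran on lane 5, and replicates 2 and 3 at 1 h on lane 6. As the mean of both genotypes 0 of 8 IP values passed (0.387% of all genes called, 2 members with an unadjusted p under 0.05, DESeq2 0 of 8).

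In inputs the largest training value was that of Ntf3 in controls. It was at 4.85, 6.33 and 5.54 CPM in naive mice and at 3.40, 3.52 and 3.97 CPM at 1 h, without overlap, a log2 fold change of -0.60 (SE 0.14, adjusted p = 0.061). Under other settings of the fit this value ran from -0.63 to -0.60, with an adjusted p of 0.018 to 0.58. Naive control inputs 1 and 2 ran on lane 4, and naive control input 3 and all control inputs at 1 h on lane 5. In cKI inputs Ntf3 was at 3.74, 3.96 and 4.42 CPM in naive mice and at 5.43, 4.25 and 4.13 CPM at 1 h (0.20, 95% interval -0.10 to 0.50), and the interaction was 0.80 (SE 0.20, unadjusted p = 0.0011, adjusted p = 0.36). In control inputs 0 of 8 members passed (0.737% of all genes called, 1 with an unadjusted p under 0.05), and DESeq2 called Ntf3. In cKI inputs it was 0 of 8 with both tools (0.0174% of all genes, 2 with an unadjusted p under 0.05), as it was for the mean of both genotypes (0.818% of all genes, 1 with an unadjusted p under 0.05). Bdnf had 0.06 (-0.05 to 0.18) in control inputs and 0.10 (-0.01 to 0.22) in cKI inputs.

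Immediate-early genes show what the same libraries detected at this time. Of 23 such genes 3 rose in control IPs at 1 h, Fosb (1.29, SE 0.15, adjusted p = 0.0024), Egr2 (2.12, SE 0.36, adjusted p = 0.049) and Egr4 (0.95, SE 0.17, adjusted p = 0.047), and 1 rose in cKI IPs, Fosb (1.33, SE 0.15, adjusted p = 0.0045). In inputs the same 3 names passed in controls and Fosb in cKI. Fosb in control IPs kept its call with every library left out in turn and with lane as a covariate. Egr2 in control IPs lost it in 10 of 12 fits with 1 library left out, with lane (adjusted p = 0.076) and with library totals (0.055), and Egr4 in 7 of 12. With lane as a covariate Fosb in cKI IPs (adjusted p = 0.3) and Egr2 (0.68) and Egr4 (0.42) in control inputs did not pass. The median over the 23 genes was 0.39 in control IPs and 0.57 in cKI IPs. Of the 39 Trk signalling genes 1 passed in control inputs, Irs2 (0.39, SE 0.07, adjusted p = 0.013; 0.56 with lane as a covariate), and none in either IP comparison.

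**Figure D4:**
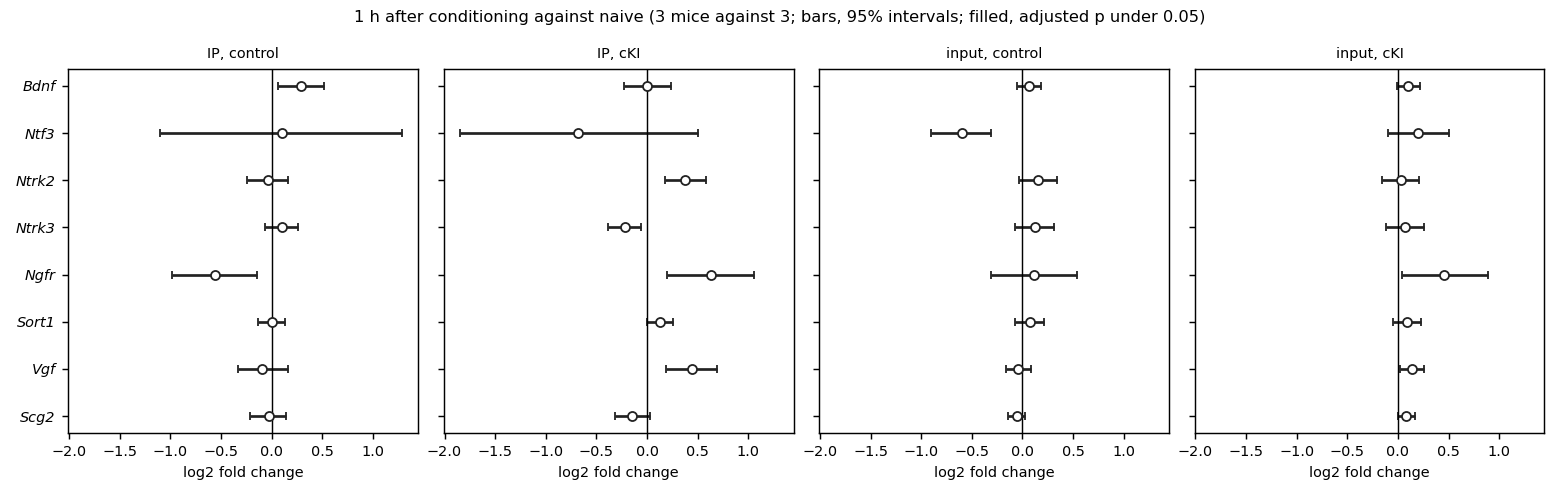
Log2 fold change at 1 h after conditioning against naive (horizontal axis) for the 8 genes, by fraction and genotype, with 95% intervals from 3 mice against 3. No point is filled, since none of the 32 values passed an adjusted p of 0.05. Ntf3 has the widest intervals in the IPs.

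Ntf3 varied most among IPs. Its highest IP level was 3.84 times its lowest (2.34 to 9.0 CPM), against 3.40 to 6.33 CPM in inputs. Sort1 stood at the other end, with 880 to 1030 CPM over the 12 IPs. Ntf3 is known as a neurotrophin of dentate granule cells in the adult hippocampus. After these values were seen, they were set beside the granule marker levels of the same libraries. The 4 IPs with the lowest granule marker score, naive control replicates 2 and 3, control replicate 3 at 1 h and cKI replicate 2 at 1 h, were also the 4 with the lowest Ntf3 level, at 2.34 to 3.01 CPM. Their granule markers summed to 601 to 651 CPM. In the other 8 IPs Ntf3 was at 4.66 to 9.0 CPM and the markers at 947 to 2150 CPM. Of the low libraries 3 were controls and 1 was cKI, none was a naive cKI library, and all 4 ran on lane 6. The inputs, with marker sums of only 1030 to 1240 CPM, did not show this order. Their highest Ntf3 level (6.33 CPM, naive control replicate 2) came with a sum of 1030 CPM. Their lowest (3.40 CPM, control replicate 1 at 1 h) came with 1140 CPM.

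**Figure D5:**
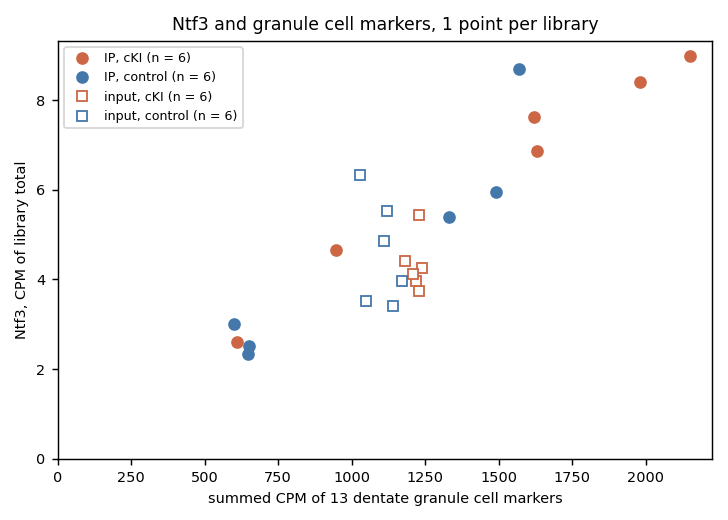
Ntf3 level (vertical axis, CPM of the library total) against the summed level of 13 dentate granule cell markers (horizontal axis, CPM), 1 point per library. Filled circles are IPs and open squares inputs (blue, control; orange, cKI). In the IPs the 4 libraries with marker sums of 601 to 651 CPM have 2.34 to 3.01 CPM of Ntf3, and the inputs stay between 1030 and 1240 CPM of markers.

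The genes whose levels followed each member most closely over the 24 libraries were found by the root mean square difference of log2 CPM, after each gene was centred on its mean within each fraction, among 10492 genes (10493 for Ngfr). For Vgf these were Nefh, Atf4 and Sbk1, with differences of 0.0928 to 0.102 against a median of 0.255 over all candidates. For Ntf3 they were Apcdd1, Synpr and Thrsp (0.216 to 0.24, median 0.536). For Bdnf they were Slc25a25, Phf23 and Sec61a1 (0.0846 to 0.0888, median 0.172), and for Scg2 Cul9, Gpd1 and Tspan7 (0.0516 to 0.0568, median 0.141). Ntrk2 was nearest to Kif1b, Kif1a and Cmtm4 (0.06 to 0.0606, median 0.203) and Ntrk3 to Smc5, Rimbp2 and Phf20l1 (0.0808 to 0.0952, median 0.193). Sort1 was nearest to Zmym2, Kpna1 and Hspa12a (0.0322 to 0.0337, median 0.145). Ngfr had the least close neighbours relative to its median, Etv5, Tnfaip3 and Srgap1 (0.203 to 0.207, median 0.319). These neighbours share libraries, depth and cell makeup with the member. A gene that did not vary within a fraction would lie at 0.22 from Vgf, 0.534 from Ntf3, 0.13 from Bdnf and 0.0925 from Scg2. From Ntrk2, Ntrk3, Sort1 and Ngfr such a gene would lie at 0.152, 0.159, 0.0735 and 0.29. Each of these distances is below the median given for that member.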

How the data were processed

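Values are the raw counts that the authors deposited for 24 libraries, 1 row per gene, made from poly(A) libraries of a directional kit read in pairs, per the labels' protocols. Cutadapt, Bowtie and DESeq2 are listed in the submitters' processing notes with no role. Counting tool, build and strand setting were not given in the sources used here. Libraries were mapped to groups by their titles, and no column was left out. Of the deposited gene symbols, 26 had been turned into dates, none of them a member. Libraries of 1 fraction were fitted together (all 24 for IP against input) in R 4.3.3 with edgeR 4.0.16 (TMM, filterByExpr, robust quasi-likelihood test, 1 mean per group) and limma 3.58.1, which left 15238 genes in IPs, 17232 in inputs and 17453 in both. P-values were two-sided and adjusted by Benjamini-Hochberg over these genes. The steps were tested on simulated data. Alternatives were DESeq2 1.42.0 (size factors, Wald test), library totals, no filter, blocks, lane, the groups of a contrast alone, each library left out and, chosen after seeing the data, the granule marker score as a covariate.

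Members, lists and comparisons were chosen with earlier results of these data known. The named genes are the 8 members, of each list at most 4 genes called in a contrast, by smallest p (Hap1, Rab27b and Pcsk1n were added after their values were seen), and the 3 nearest neighbours of each member. Replicates are mice with separate numbers in the titles. Inputs and IPs with the same mouse number come from 1 animal, and their deviations from the group means correlated at a median r of 0.15 (-0.21 to 0.53). Replicate pairs differed by more than sampling noise in every group.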

Additional observations from a re-analysis of the deposited data

How the results depend on the processing

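Under library totals Ntrk2 (-0.30) and Ntrk3 (-0.12) turned sign between IP and input. Of 952 member values under alternatives, 42 that were not called had the other sign. The number of members called changed as follows. In naive IPs it was 4, and 0 with lane as a covariate, 2 with the contrast's groups alone and 1 with the granule score. For the mean of both states in IPs it was 0, and 1 with the DESeq2 Wald test, with the replicate block and with the granule score (Vgf each time). For 1 h against naive in cKI IPs it was 0, and 2 with the Wald test and 1 with the replicate block (Vgf, 0.44, adjusted p = 0.036). In naive inputs it was 1, and 2 with the Wald test (Scg2 added). At 1 h in inputs it was 0, and 1 with the Wald test, 1 without the filter and 2 with the contrast's groups alone (Vgf and Ntrk3). For the mean in inputs it was 1, and 2 with library totals, 2 with the Wald test (Ntrk3 added each time) and 0 with lane as a covariate. For training in control inputs it was 0, and 1 with the Wald test and 1 without the filter (Ntf3). Between IP and input it was 6, and 4 with lane as a covariate and 7 with the Wald test, DESeq2 size factors or library totals. The cause of these changes was not tested.

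Leaving out each library in turn gave 0 to 5 members in naive IPs, 0 to 1 for the IP mean, 0 to 1 in inputs at 1 h, 1 to 2 for the input mean (2 without naive cKI replicate 1 or naive control replicate 3), 6 to 7 for IP against input, and the same count as with all libraries in the other comparisons. In naive IPs the Vgf estimate then stayed between -0.68 and -0.53, and in inputs as a mean between -0.37 and -0.31, called in each case there.

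Mice of different groups with the same replicate number had deviations that correlated at a median r of 0.14 (-0.4 to 0.6) in IPs. In inputs it was -0.031 (-0.31 to 0.25). Since input and IP of 1 mouse had a median of 0.15, these values do not decide whether replicate numbers pair the mice. Blocking on the replicate number left 4 members called in naive IPs and 1 in naive inputs, and blocking on the mouse left 6 for IP against input. The replicate block raised the count from 0 to 1 for the mean of both states in IPs and for training in cKI IPs (Vgf in both, as above), and left it as it was in the other comparisons within a fraction.

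Counts over all genes moved by more than 1.5 times, and with 1 library left out they ran from 22 to 933 in naive IPs, 52 to 143 in naive inputs, 3 to 207 in inputs at 1 h and 164 to 741 for the input mean. Over the other alternatives they ran from 1 to 1285 (564 in the text's fit) in naive IPs, 5 to 47 (9) at 1 h, 3 to 778 (258) for the IP mean, 26 to 267 (50) for training in control IPs and 0 to 125 (7) in cKI IPs. For inputs they ran from 36 to 3.39 times the 148 of the text in naive mice, 1 to 498 (46) at 1 h, 18 to 946 (543) for the mean, 13 to 307 (127) for training in controls and 2 to 23 (3) in cKI, and for IP against input from 9763 to 16982 (14996). Training as a mean ran from 2 to 335 (59) in IPs and 19 to 293 (141) in inputs. The interactions ran from 0 to 85 (2) in IPs and 1 to 33 (6) in inputs. The IP to input ratio ran from 0 to 41 (4) by genotype and 0 to 6 (1) by training. Depth limits Ngfr most, at 0.945 to 2.55 CPM.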
